A study of Mus musculus with 35 samples.

Results

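The RNA levels of 9 complement genes were followed through mouse skin wounds, namely the C1q chains C1qa, C1qb and C1qc, the components C4b and C3, the alternative pathway proteins Cfb and Cfp, and the receptors C3ar1 and C5ar1. The genes were chosen by symbol and are 9 of the 22830 gene symbols in the count tables. The 35 libraries came from dorsal skin wounds of adult mice of both sexes. Col5a1CKO mice carried Col1a2CreERT and Col5a1 fl/fl, so that tamoxifen deleted Col5a1, a chain of the fibrillar collagen V, in cells that express the Col1a2-driven recombinase. WT mice were Cre-negative Col5a1 fl/fl littermates, and both genotypes received tamoxifen. Only cells with the recombinase lose the gene, so a Col5a1CKO wound still holds keratinocytes, leukocytes and other cells with intact Col5a1.

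Day 14 after wounding was sampled in 7 WT wounds, 7 Col5a1CKO wounds and a further 3 Col5a1CKO wounds injected with cultured WT fibroblasts. The paper's legends describe 7 wounds of each genotype at day 14 as vehicle-treated, and its methods give PBS as the control for fibroblasts. Another of its legends gives 4 wounds of each genotype at day 14 and mentions no vehicle. The titles do not mention vehicle, and untreated below means only without fibroblasts. Day 19 was sampled in 3 wounds of each genotype. Wounds of these 23 libraries are named by the letters of their titles. The treatment label of the day 19 Col5a1CKO libraries mentions WT fibroblasts while their titles do not, and that of the day 14 libraries titled with fibroblasts does not mention them. The titles were followed throughout, so results for these 2 groups rest on them. A second table held 12 libraries, 4 from each of vehicle-treated WT, vehicle-treated Col5a1CKO and cilengitide-treated Col5a1CKO mice. Cilengitide, an inhibitor of alpha v integrins, was given daily. The series text places the cilengitide experiment at day 14. The methods describe replicates as biologically separate, but the labels do not tie wounds to animals, so the p-values measure the spread between these libraries.

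Complement is a cascade of serum and tissue proteins that marks microbes, immune complexes and dying cells. C1q starts the classical pathway and C4 carries it on, while factor B and properdin drive the alternative pathway, and both converge on the cleavage of C3. The small fragments released from C3 and C5 attract and activate leukocytes through C3ar1 and C5ar1. Most plasma complement is made in the liver, but C1q comes mainly from macrophages, and skin cells and leukocytes make several other components locally. Levels below are given as CPM, the counts per 1000000 counts of a library after TMM scaling. Where genes are compared with each other, RPKM is given, which also divides by the length of the transcript in kilobases.

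Depth was 15043531 to 35700337 counts per library in the first table, and the cilengitide libraries held 51211600 to 68266760. In the first table the log2 difference between GC-rich and GC-poor genes split the libraries into 2 sets that lay 1.54 apart. The lower set held WT wounds a to d and Col5a1CKO wounds a to e of day 14, and the upper set held all others. Within the upper set the 3 day 14 WT wounds were male by Y-linked genes, and the 2 Col5a1CKO and 3 fibroblast-treated wounds were female by Xist, so sex and genotype cannot be told apart there. At day 19 WT wound a expressed Y-linked genes and all other wounds expressed Xist. The paper's legends include a male among the fibroblast-treated wounds and among the day 19 Col5a1CKO wounds. All libraries titled as these groups expressed Xist, without Y-linked genes above background. In the fibroblast experiment the legend also gives fewer males among WT and vehicle Col5a1CKO wounds than the Y-linked genes show. In Col5a1CKO vehicle wound 2 neither Xist (0.922 CPM) nor the Y-linked genes (0.0 CPM) were found above background. Col5a1 itself was lower by 1.43 ± 0.49 (log2, SE) in Col5a1CKO at day 14 (171.5 to 667.4 CPM against 345.0 to 2404 CPM), with an edgeR adjusted p of 0.0756. Its other Col5a1CKO to WT differences lay between -1.17 and -1.81 with adjusted p of 0.12 to 0.272, and its ranges overlapped each time. Defining markers of keratinocytes, fibroblasts and leukocytes were all present, while the summed level of 3 hepatocyte markers stayed between 0 and 18.9 CPM.

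On the NCBI37 assembly used for the counts, all 9 genes lie on the minus strand. The C1q genes are neighbours on chromosome 4, with C1qb at 136436044 to 136442102, C1qc at 136445719 to 136448980 and C1qa at 136451832 to 136454718. C4b (34865325 to 34880827), Cfb (34993319 to 34999463) and C3 (57343397 to 57367559) lie on chromosome 17. C3ar1 lies on chromosome 6 (122797156 to 122806179), C5ar1 on chromosome 7 (16832092 to 16844889) and Cfp on chromosome X (20502580 to 20508681).

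RefSeq promoter sequence on build GRCm38.p6 was matched for 6 of the 9 genes, and 4 promoters are printed because they belong to the most abundant transcripts of the group, the C1q chains, and to the ones with the largest differences between wounds, C3 and C5ar1. Each is the 250 bases before the start, read 5′ to 3′ on the minus strand, at chr4:136886201-136886450 for C1qb, chr4:136892915-136893164 for C1qc, chr17:57228137-57228386 for C3 and chr7:16259339-16259588 for C5ar1. Capitals mark matches, on either strand, to GGAAGT (ETS family), TTNNGNAA (C/EBP) and GAAANNGAA (interferon-stimulated response element).
C1qb: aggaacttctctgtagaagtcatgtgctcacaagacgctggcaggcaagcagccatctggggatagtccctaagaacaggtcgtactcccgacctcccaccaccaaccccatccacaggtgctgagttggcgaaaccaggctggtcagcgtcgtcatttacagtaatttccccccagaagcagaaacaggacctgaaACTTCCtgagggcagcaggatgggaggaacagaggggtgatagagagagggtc
C1qc: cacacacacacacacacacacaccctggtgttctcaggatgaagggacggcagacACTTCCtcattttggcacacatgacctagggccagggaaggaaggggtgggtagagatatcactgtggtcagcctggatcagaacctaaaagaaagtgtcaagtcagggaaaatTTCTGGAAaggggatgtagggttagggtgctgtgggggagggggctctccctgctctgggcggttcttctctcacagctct
C3: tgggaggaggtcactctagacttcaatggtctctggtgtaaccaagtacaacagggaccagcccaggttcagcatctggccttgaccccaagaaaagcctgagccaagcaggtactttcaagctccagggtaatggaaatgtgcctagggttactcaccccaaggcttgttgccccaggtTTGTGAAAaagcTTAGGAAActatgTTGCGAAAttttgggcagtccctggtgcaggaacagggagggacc
C5ar1: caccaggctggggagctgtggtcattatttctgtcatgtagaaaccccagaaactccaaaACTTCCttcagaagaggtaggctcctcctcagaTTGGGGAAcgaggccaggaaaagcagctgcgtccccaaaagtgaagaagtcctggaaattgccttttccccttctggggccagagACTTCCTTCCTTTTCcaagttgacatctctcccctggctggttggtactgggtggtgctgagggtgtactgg

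The C3 promoter held 3 C/EBP matches within 70 bases of the start, the last of them on both strands. The C1qb promoter held an ETS match 53 bases before the start and no C/EBP match, and C1qc held an ETS match at 195 bases and a C/EBP match at 81 bases. In C5ar1 there were 2 ETS matches, at 190 and 72 bases, a C/EBP match at 157 bases and an interferon-type match at 66 bases that follows directly on the nearer ETS match. Of the matched genes not printed, C3ar1 held the AP-1 letters TGANTCA at 22 bases and Cfp held none of the motifs. Of 32851 mouse promoters of the same length, 19.7% held GGAAGT, 36.8% TTNNGNAA, 7.13% GAAANNGAA, 6.75% TGANTCA and 7.02% the gamma-activated site TTCNNNGAA, which was found in none of the 6. The motifs were chosen after the sequences had been seen, and a match is a description of letters only.

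Set side by side by length, the C1q chains were the most abundant of the 9 transcripts. They held the first 3 places in 7 of the 8 groups, with a median C1qb level of 83.99 RPKM in WT and 136.4 RPKM in Col5a1CKO wounds at day 14. The exception was Col5a1CKO at day 19, where C3 (122.6 RPKM) stood above C1qc (110.8 RPKM). The place of C3 differed between the genotypes at day 14 and with vehicle. Its median was 2.383 RPKM and 7th of 9 in WT wounds at day 14 and 4.328 RPKM and 7th in WT vehicle wounds, but it was 4th in Col5a1CKO wounds at day 14 (57.95 RPKM) and with vehicle (111.5 RPKM). At day 19 it was 4th in WT (64.74 RPKM) and 3rd in Col5a1CKO wounds. C4b came last in 6 of the 8 groups, from 1.205 RPKM in WT wounds at day 14. Of the 64 pairs of neighbours in these orders, 55 had overlapping wounds. The step from C1qc down to the next gene was free of overlap in WT wounds at day 14 and with vehicle, and in fibroblast- and cilengitide-treated wounds. Between the lowest and highest wound of a group, C4b spread 28.5-fold with cilengitide and 19.2-fold among Col5a1CKO wounds at day 14.

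**Figure D1:**
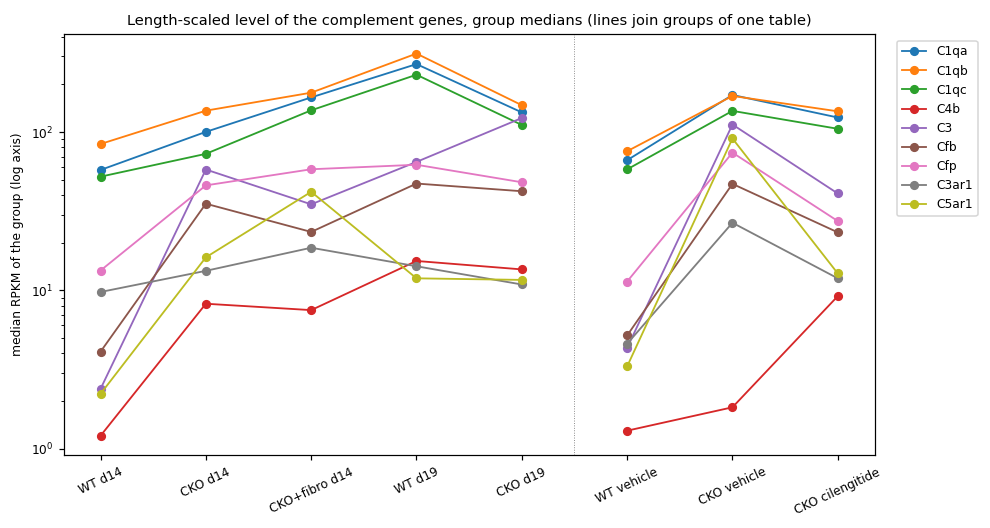
Median RPKM of each of the 9 genes (points, log axis) in the 8 groups, with lines joining groups of the same table. The C1q chains lie on top in 7 of 8 groups, and C3 moves from 2.383 RPKM in WT to 57.95 RPKM in Col5a1CKO wounds at day 14.

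The chains of C1q, which assemble together into a single protein, varied less against each other than in level. Their RPKM ratios to C1qb spanned 1.61-fold for C1qa and 2.08-fold for C1qc. The highest and lowest C1qc ratios, in WT wound b and Col5a1CKO wound c of day 14, came from the lower library set. C1qa stood at 0.638 to 1.03 times the RPKM of C1qb over the 35 wounds (median 0.879), and C1qc at 0.534 to 1.11 times (median 0.735), while C1qa itself ranged from 18.75 to 351.6 CPM. The mean of each group was first subtracted from the log2 levels, within library set in the first table. The deviations of any pair of chains then correlated with r of 0.97 to 0.99. This range held in the 23 libraries of the first table and in the 12 of the second. These points share libraries, depth and cell content, and the correlations describe the libraries only.

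**Figure D2:**
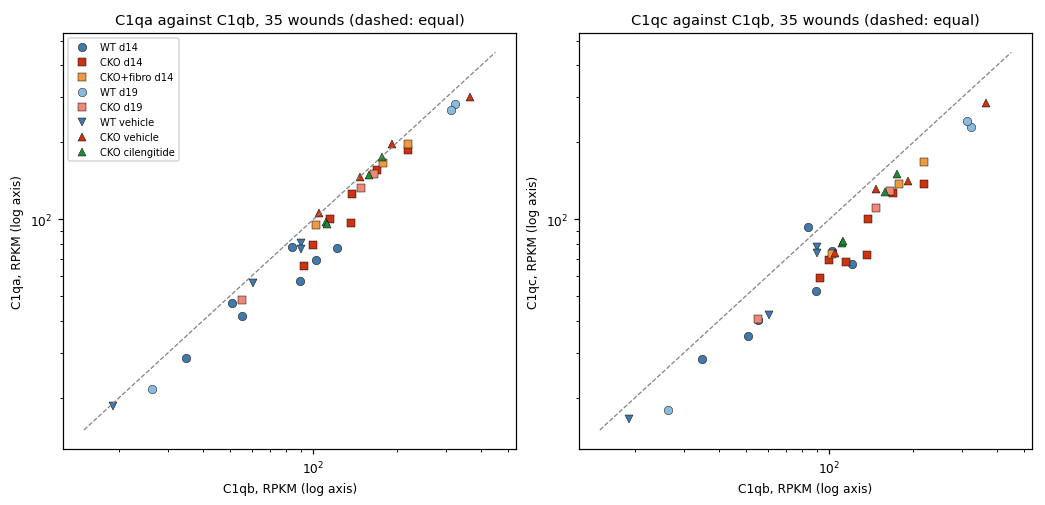
RPKM of C1qa (left) and C1qc (right) against C1qb in each of the 35 wounds, on log axes, with the dashed line at equal levels. Symbols and colours mark the groups, and the ratio to C1qb stays within 0.638 to 1.03 for C1qa and 0.534 to 1.11 for C1qc.

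At day 14, C3 and the alternative pathway proteins Cfb and Cfp were higher in Col5a1CKO than in WT wounds, as was the C5a receptor C5ar1. C3 differed by 8.86-fold, C5ar1 by 5.70-fold, Cfb by 5.21-fold and Cfp by 2.89-fold. A gene was called where edgeR's quasi-likelihood test gave an adjusted p under 0.05 and the fold was at least 2. By this rule 4 of the 9 genes were higher and 0 lower, against 5.57% of 14367 tested genes called higher and 2.71% called lower. At an unadjusted p under 0.05 with 2-fold, 6 of the 9 were higher and 0 lower, against 10.1% and 6.79% of genes. The median log2 fold change of the 9 was 1.53, and that of all genes was -0.03.

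C3, the central component on which the pathways converge, was at 9.779 CPM in the lowest, 19.41 CPM in the median and 147.5 CPM in the highest of 7 WT wounds. In the 7 Col5a1CKO wounds it was at 143.5, 386.2 and 714.1 CPM. Only WT wound a, the highest, reached into the Col5a1CKO range, and the log2 fold change was 3.15 ± 0.62 (SE, adjusted p = 0.00837). Cfb, the protease subunit of the alternative convertase, was at 8.233, 17.0 and 62.16 CPM in WT and at 47.85, 123.4 and 230.7 CPM in Col5a1CKO wounds (2.38 ± 0.47, adjusted p = 0.0085). Its ranges also met through WT wound a. Properdin (Cfp), which stabilises that convertase, was at 21.59, 29.99 and 48.3 CPM in WT and at 57.35, 107.9 and 158.9 CPM in Col5a1CKO wounds. It was the only one of the 9 genes whose ranges did not meet, a pattern seen upwards in 2.31% of tested genes, and its log2 fold change was 1.53 ± 0.29 (adjusted p = 0.00768).

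Of the receptors, C5ar1 was at 1.813, 8.52 and 30.1 CPM in WT and at 23.61, 56.25 and 165.0 CPM in Col5a1CKO wounds (2.51 ± 0.59, adjusted p = 0.0168). WT wound b was the only WT wound above the lowest Col5a1CKO wounds. C3ar1, the receptor for the C3 fragment, was at 15.89, 58.92 and 71.9 CPM in WT and at 68.27, 73.96 and 167.2 CPM in Col5a1CKO wounds. Its ranges met at their edges, and a difference of 1.05 ± 0.37 did not pass the test (adjusted p = 0.0801). It was called with the library set as a covariate (1.08, adjusted p = 0.0065) and by DESeq2 (1.06, 0.0366). With single wounds left out the C3ar1 difference ran from 0.87 to 1.17, with edgeR adjusted p of 0.0638 to 0.171.

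The C1q chains differed less. C1qa was at 46.86, 91.95 and 126.4 CPM in WT and at 95.36, 166.9 and 286.1 CPM in Col5a1CKO wounds. Its log2 difference of 0.93 ± 0.27 had an adjusted p of 0.0429 but stayed under 2-fold, and it passed both limits without WT wound b (1.0, adjusted p = 0.0407) or d (1.01, 0.0413), or without Col5a1CKO wound d (1.03, 0.0219) or e (1.01, 0.0468). Over all single omissions the C1qa difference ran from 0.77 to 1.03, with adjusted p of 0.0219 to 0.0973. C1qb was at 55.91, 125.8 and 194.3 CPM against 131.0, 199.1 and 329.6 CPM (0.76 ± 0.28, adjusted p = 0.0956). C1qc was at 45.14, 81.24 and 138.4 CPM against 83.35, 110.6 and 206.1 CPM (0.61 ± 0.28, adjusted p = 0.179). The ranges of all 3 chains overlapped.

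C4b, the classical pathway component cleaved by C1s, was the most scattered. It was at 4.219, 10.21 and 74.98 CPM in WT and at 13.83, 64.03 and 274.2 CPM in Col5a1CKO wounds (1.98 ± 0.75, adjusted p = 0.106). Its highest value in each genotype came from the lower library set, WT wound a and Col5a1CKO wound b, and without WT wound a the difference was called (2.76, adjusted p = 0.0272). It was also called by DESeq2 (2.0, adjusted p = 0.026) and with all groups in one fit (2.02, 0.035). With single wounds left out the difference ran from 1.36 to 2.76, with edgeR adjusted p of 0.0272 to 0.256. C4b and C4a are near-identical neighbours whose reads the counting could split, so C4b values are uncertain, and C4a was at 0 to 2.032 CPM in all 35 wounds.

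**Figure D3:**
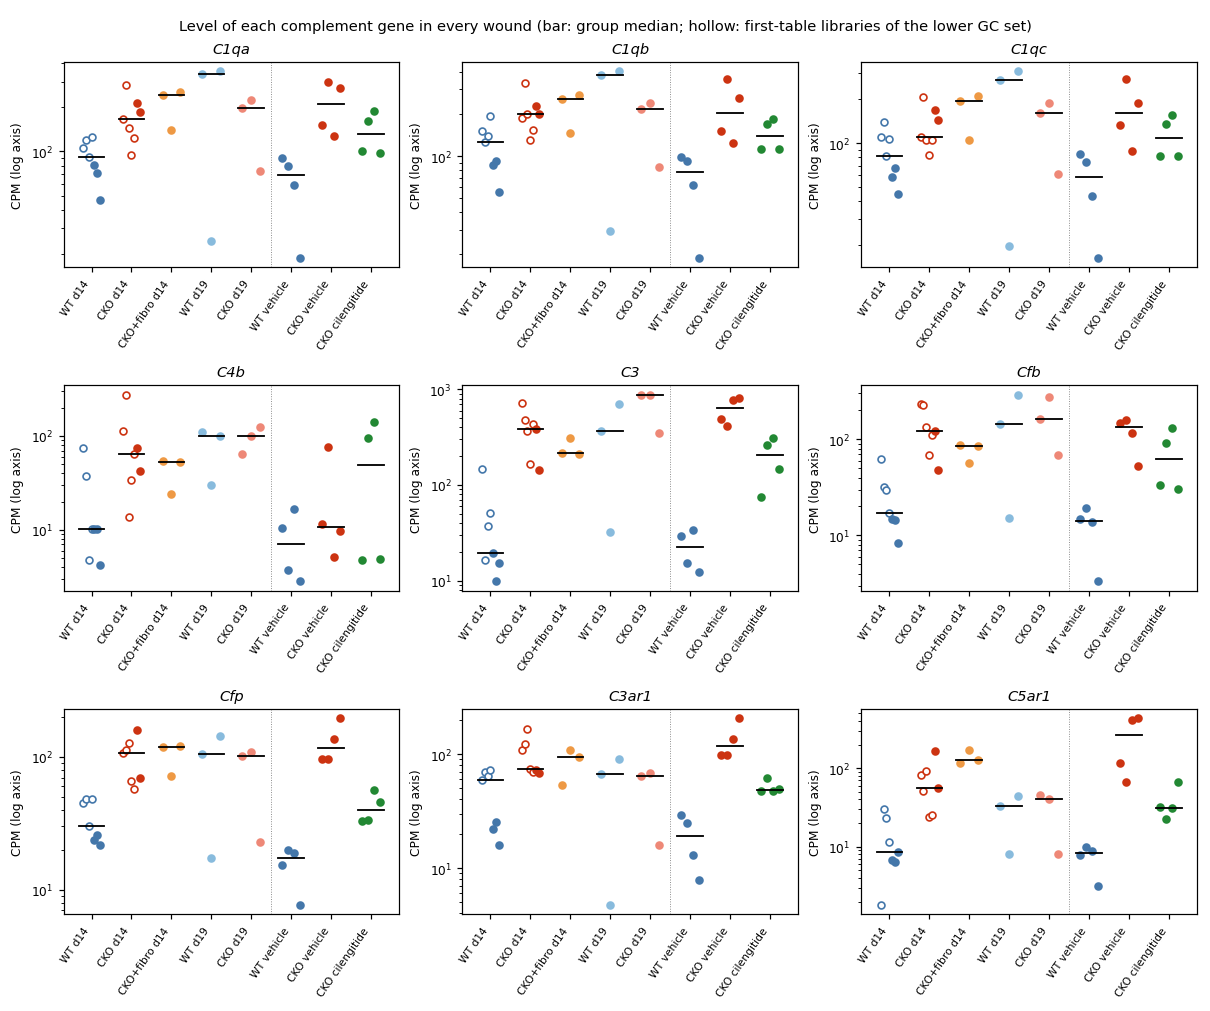
CPM of each complement gene in every wound (log axis), by group, with a bar at the group median and hollow points for the day 14 libraries of the lower GC set. Cfp is the gene whose day 14 WT (21.59 to 48.3 CPM) and Col5a1CKO (57.35 to 158.9 CPM) wounds do not overlap, and C4b spreads widely within groups.

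The day 14 differences were smaller in the lower library set than in the upper. Within the lower set (4 WT against 5 Col5a1CKO wounds) 3 of 9 genes were called higher and 0 lower, against 3.68% and 2.92% of all genes. These were C3 (2.75, adjusted p = 0.039), Cfb (2.11, 0.0251) and Cfp (1.13, 0.033). There C5ar1 differed by 1.72 (adjusted p = 0.174), C3ar1 by 0.70 (0.112), C4b by 1.61 (0.372) and the C1q chains by 0.14 to 0.54. Within the upper set (3 male WT against 2 female Col5a1CKO wounds) all 9 were called higher, against 8.81% of all genes higher and 0.412% lower, with C3 at 4.26, C5ar1 at 4.03, C4b at 2.93 and the C1q chains at 1.55 to 1.69. The test for a difference between the sets was not run.

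With both library sets pooled, Ptprc and markers of macrophages and neutrophils moved with these genes. Ptprc, which encodes the pan-leukocyte antigen CD45, spanned 29.0 to 126 CPM in WT wounds at day 14 and 139 to 772 CPM in Col5a1CKO. The summed level of 8 macrophage markers was 476 to 3280 CPM against 1870 to 5290 CPM, with 3 of 8 called higher, and that of 6 neutrophil markers was 1150 to 8990 CPM against 1720 to 21300 CPM, with 3 of 6 called higher. The low macrophage sums in WT were those of the upper library set, wounds e to g (475.9 to 722.4 CPM). In the lower set the WT sums (2705 to 3285 CPM) lay inside the Col5a1CKO range of 2000 to 5291 CPM. None of these markers was at 0 throughout a group. Lymphocyte and mast cell markers did not move in 1 direction, with 1 of 5 T cell markers called (Cd4, higher; median log2 difference -0.18), 0 of 2 tested for B cells (0.1) and 0 of 4 for mast cells (0.22). All 3 endothelial markers were called higher (median 1.62), and their sum was 48.3 to 185 CPM in WT against 172 to 422 CPM in Col5a1CKO. All 6 fibroblast markers had positive differences (median 0.78), with 1 called (Pdgfra), and their sum was 8480 to 84600 CPM in WT against 31500 to 129000 CPM in Col5a1CKO. In the lower set that sum was 50080 to 84640 CPM in WT against 46560 to 128600 CPM in Col5a1CKO. In the upper-set WT wounds it was 8479 to 9547 CPM. Keratinocyte markers (4 genes) summed to 30100 to 151000 CPM in WT wounds, against 30.2 to 56200 CPM in Col5a1CKO. Per unit of Ptprc, C3 had a median of 0.384 in WT and 1.03 in Col5a1CKO wounds, C5ar1 0.147 and 0.159, C3ar1 0.589 and 0.323, and C1qa 1.25 and 0.644. Per unit of Csf1r, the receptor that macrophages need for survival, the median of C1qa was 1.01 and 0.603. In WT this ratio differed by library set, at 1.01 to 1.73 in wounds a to d and 0.552 to 0.71 in wounds e to g. The latter lay inside the Col5a1CKO range of 0.462 to 0.833. In bulk wounds, fewer cells of a type and less RNA per cell cannot be told apart, and the part of these markers in the results was not tested.

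At day 19 no complement gene differed between the genotypes by the call rule, and the WT wounds spread widely. By edgeR 0 of 9 genes were called, against 0.0198% of 15135 genes called higher and 0% lower, and at an unadjusted p under 0.05 with at least 2-fold there were also 0 of 9, against 5.38% of genes higher and 6.23% lower. DESeq2 also called 0 of the 9, although it called 684 genes higher and 713 lower. C3 was at 368.1, 32.04 and 698.2 CPM in WT wounds a, b and c and at 877.5, 863.5 and 345.9 CPM in Col5a1CKO wounds (0.95 ± 1.03, adjusted p = 0.574). C1qa was at 338.1, 24.53 and 351.6 CPM in WT and at 199.4, 223.5 and 74.16 CPM in Col5a1CKO wounds (-0.49 ± 0.96, adjusted p = 0.77).

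WT wound b was the lowest of the day 19 WT wounds for all 9 genes. Cfb was at 143.8, 15.14 and 290.5 CPM in WT and at 160.7, 276.4 and 68.18 CPM in Col5a1CKO wounds, and Cfp at 104.8, 17.44 and 144.8 CPM against 101.6, 109.1 and 22.98 CPM. C3ar1 was at 67.52, 4.753 and 89.78 CPM against 64.77, 67.97 and 15.9 CPM, and C5ar1 at 33.47, 8.05 and 43.96 CPM against 45.06, 40.55 and 7.999 CPM. Col5a1CKO wound c was low for all of these as well, so low wounds occurred in both genotypes. C4b was less scattered than at day 14, at 110.5, 29.78 and 99.92 CPM in WT and 64.61, 100.3 and 124.3 CPM in Col5a1CKO wounds (0.30 ± 0.54, adjusted p = 0.745). The interval of the C3 difference ran from -1.06 to 2.97. Summed macrophage markers were at 284 to 4140 CPM in WT wounds, against 580 to 2490 CPM in Col5a1CKO, and Ptprc at 18.2 to 164 and 27.5 to 161 CPM, a scatter of the same kind whose part was not tested.

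The difference between the days was tested as an interaction of genotype and day. All 9 estimates were negative, meaning a smaller Col5a1CKO to WT difference at day 19, from -1.14 for C1qc to -2.36 ± 1.08 for C5ar1. None passed the adjusted threshold in edgeR (adjusted p of 0.771 or more), as was true of 0% of 15954 genes, and the DESeq2 values were 0.406 or more. At an unadjusted p under 0.05 there were 3 of 9 genes, C5ar1, Cfb and Cfp, against 5.89% of all genes. The day 14 difference is thus not shown to differ from that of day 19.

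Injection of WT fibroblasts into Col5a1CKO wounds was compared first with Col5a1CKO wounds without them at day 14. No gene of the 9 was called by edgeR or DESeq2 in either direction, as was the case for 0% of 15659 genes in edgeR, and 0 of 9 had an unadjusted p under 0.05 with a 2-fold change, against 0.236% of genes higher and 5.45% lower. C3 was at 218.2, 308.2 and 212.1 CPM in the 3 treated wounds, inside the Col5a1CKO range of 143.5 to 714.1 CPM. Its log2 difference was -0.64 with an interval of -1.54 to 0.26 (adjusted p = 0.525). Cfb, at 86.55, 57.17 and 86.04 CPM, differed by -0.82 with an interval of -1.73 to 0.09 (adjusted p = 0.446), and C4b, at 54.5, 23.94 and 52.46 CPM, by -1.01 ± 0.79 (0.563). The C5a receptor C5ar1 was at 116.5, 170.4 and 126.0 CPM, towards the upper end of the Col5a1CKO wounds, with a difference of 0.95 ± 0.51 (adjusted p = 0.429). The C1q chains differed by 0.14 to 0.36, Cfp by 0.06 and C3ar1 by -0.19. The intervals for C3 and Cfb include both no change and a fall of over 2-fold. All 3 treated wounds were female and in the upper library set. Col5a1CKO wounds a to e were in the lower set, and a to d were male, so treatment partly coincided with both. Within the upper set, against Col5a1CKO wounds f and g, 0 of 9 genes were called, as were 0% of 15559 genes.

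The treated wounds were also set against WT, a comparison that shares its treated wounds with the one just above and its WT wounds with the day 14 comparison of the genotypes. C1qa (241.3, 139.6 and 253.3 CPM) was higher by 1.35 ± 0.32 (adjusted p = 0.0308), C5ar1 by 3.58 ± 0.63 (11.9-fold, adjusted p = 0.00725) and Cfp (119.5, 72.31 and 121.0 CPM) by 1.73 ± 0.33 (adjusted p = 0.011). All 3 treated wounds were above all 7 WT wounds for these genes and for C3, a pattern seen upwards in 9.92% of tested genes. In this comparison 3 of 9 genes were called higher, against 3.77% of 15316 genes, and none lower, against 2.06%. At an unadjusted p under 0.05 with 2-fold, 7 of 9 were higher and 0 lower, against 9.16% and 7.97% of genes. C3 differed by 2.65 ± 0.71 (adjusted p = 0.0507), Cfb by 1.71 (0.0797), C3ar1 by 1.0 (0.253), C1qb by 1.04 (0.125), C1qc by 1.1 (0.106) and C4b by 1.12 (0.474).

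This count turned on single wounds and on the library set. Without WT wound a it was 5, with C3 (3.45, adjusted p = 0.00427) and Cfb (2.12, 0.0177) added, and without treated wound a or c it was 1, C5ar1, with C1qa at 1.21 and 1.16 and Cfp at 1.58 and 1.57. C1qa also lost its call without WT wound e (1.31, adjusted p = 0.0546) or f (1.29, 0.0509), and with all groups in one fit (1.2, 0.101). Within the upper set, where the 3 WT wounds were male and the treated wounds female, 9 of 9 were called higher against 19.8% of all genes (11.2% lower), with C5ar1 at 4.39 and C3 at 4.20. Neutrophil markers summed to 8180 to 9970 CPM in the treated wounds, against 1150 to 8990 CPM in WT, and their part was not tested.

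In the cilengitide experiment, vehicle-treated Col5a1CKO wounds held more of 8 of the 9 complement transcripts than vehicle-treated WT wounds. C5ar1 differed by 33.1-fold, C3 by 26.6-fold, Cfb by 9.15-fold, Cfp by 8.17-fold, C3ar1 by 6.96-fold and C1qa by 3.35-fold. In this pair of groups 17.5% of 15434 genes were called higher and 13.4% lower, and none of the 9 was called lower. With unadjusted p the members' count was again 8 higher and 0 lower, against 19.8% and 14.5% of genes. For the same 8 genes the wounds did not overlap, a pattern seen upwards in 24.1% of genes. The median log2 fold change of the 9 genes was 2.80, and that of all genes was 0.02.

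C3 was at 29.5, 15.18, 33.55 and 12.41 CPM in the WT and at 490.5, 415.2, 775.1 and 809.5 CPM in the Col5a1CKO vehicle wounds (4.74 ± 0.45, adjusted p = 0.000566). The lowest Col5a1CKO wound stood far above the highest WT wound. Cfb was at 14.71, 19.05, 13.8 and 3.307 CPM against 149.2, 159.0, 116.7 and 52.69 CPM (3.19 ± 0.58, adjusted p = 0.00385). Cfp was at 15.49, 19.84, 19.03 and 7.705 CPM against 96.92, 96.09, 135.5 and 195.8 CPM (3.03 ± 0.37, adjusted p = 0.00104).

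Among the receptors, C5ar1 was at 7.876, 10.01, 8.878 and 3.111 CPM in WT vehicle wounds. In Col5a1CKO vehicle wounds it was at 117.0, 66.2, 407.3 and 433.4 CPM, so that wounds 3 and 4 stood several-fold above wounds 1 and 2 (5.05 ± 0.75, adjusted p = 0.00183). C3ar1 was at 29.39, 24.97, 12.99 and 7.848 CPM against 99.06, 98.72, 136.5 and 206.6 CPM (2.80 ± 0.47, adjusted p = 0.00271).

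C1qa was at 90.03, 79.11, 59.07 and 18.75 CPM in WT and 152.5, 298.8, 128.0 and 270.5 CPM in Col5a1CKO vehicle wounds (1.74 ± 0.50, adjusted p = 0.023). C1qb was at 99.24, 91.75, 62.63 and 18.81 CPM against 150.6, 354.4, 124.4 and 257.7 CPM (1.66, adjusted p = 0.0377). C1qc was at 84.45, 74.62, 43.09 and 16.32 CPM against 133.4, 273.7, 87.65 and 188.7 CPM (1.61, adjusted p = 0.042). WT wound 4 was the lowest for all 3 chains. C4b did not pass the test, at 10.42, 3.727, 16.77 and 2.825 CPM against 11.64, 76.24, 5.13 and 9.675 CPM (1.58 ± 0.97, adjusted p = 0.205), and only Col5a1CKO vehicle wound 2 stood above the WT wounds.

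The C1q calls were the ones that rested on single wounds, since the count fell from 8 to 5 without WT vehicle wound 3 (C1qa 1.72, C1qb 1.62 and C1qc 1.5, adjusted p = 0.0599 to 0.103) or Col5a1CKO vehicle wound 2 (1.52, 1.33 and 1.27, adjusted p = 0.0513 to 0.0964). C1qb and C1qc also lost theirs without WT vehicle wound 2 (1.84 and 1.8) or Col5a1CKO vehicle wound 4 (1.65 and 1.62), and C1qc without WT vehicle wound 4 (1.29) or Col5a1CKO vehicle wound 1 (1.71). Neutrophil markers summed to 96.02 to 2200 CPM in the WT, 4167 and 1586 CPM in Col5a1CKO vehicle wounds 1 and 2, and 23930 and 44810 CPM in wounds 3 and 4. With wounds 3 and 4 left out, a check added after the data had been seen, 6 genes were called, C5ar1 at 3.62 and C3 at 4.33 among them, while C1qb (1.91, adjusted p = 0.0592) and C1qc (1.91, 0.0537) were not.

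Macrophage markers summed to 287 to 1060 CPM in WT wounds, against 3510 to 8450 CPM in Col5a1CKO with vehicle, with 8 of 8 called higher, and 5 of 6 neutrophil markers were called higher. Ptprc was at 34.9 to 53.9 and 270 to 1010 CPM. Per unit of Ptprc, the median was 0.456 in WT and 0.968 in Col5a1CKO vehicle wounds for C3, 0.167 and 0.334 for C5ar1, 1.5 and 0.31 for C1qa, 0.399 and 0.217 for C3ar1, and 0.33 and 0.21 for Cfp. Relative to Ptprc the medians of C1qa, C3ar1 and Cfp were lower in Col5a1CKO and those of C3 and C5ar1 higher, and these ratios were not tested. All 6 fibroblast markers had positive differences (median 1.49), with 2 called (Pdgfra and Dcn), and their sum was 9900 to 55400 CPM in WT against 24100 to 115000 CPM in Col5a1CKO. Keratinocyte markers summed to 58100 to 94700 CPM in WT wounds, against 56.9 to 11200 CPM in Col5a1CKO.

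Cilengitide-treated Col5a1CKO wounds held less C3, Cfp, C3ar1 and C5ar1 than Col5a1CKO wounds with vehicle. C5ar1 was lower by 6.75-fold, C3 by 3.11-fold, Cfp by 3.08-fold and C3ar1 by 2.60-fold. These 4 of 9 genes were called lower and 0 higher, against 6.59% of 15563 genes called lower and 6.48% higher. With unadjusted p the members' count was again 4 lower and 0 higher, against 9.8% and 8.44% of genes. The treated wounds lay below every vehicle wound for the same 4 genes, a pattern seen downwards in 13.4% of genes. The median log2 fold change was -0.72 over the 9 and -0.06 over all genes.

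C3 was at 75.02, 263.7, 312.1 and 147.6 CPM in the treated wounds against 415.2 to 809.5 CPM with vehicle (-1.64 ± 0.46, adjusted p = 0.0363). Cfp was at 33.11, 33.53, 56.86 and 45.95 CPM against 96.09 to 195.8 CPM (-1.62 ± 0.29, adjusted p = 0.0101). C3ar1 was at 47.75, 62.07, 47.43 and 49.25 CPM against 98.72 to 206.6 CPM (-1.38 ± 0.26, adjusted p = 0.0112), with little scatter among the treated wounds. C5ar1 was at 31.72, 22.21, 31.21 and 65.99 CPM, and the highest of these lay just under the lowest vehicle wound at 66.2 CPM (-2.75 ± 0.68, adjusted p = 0.0249).

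The other complement genes overlapped between treatment and vehicle. C1qa was at 100.5, 162.1, 188.1 and 97.86 CPM with cilengitide, a log2 difference of -0.62 with an interval of -1.30 to 0.05 (adjusted p = 0.211). C1qb was at 112.0, 168.5, 184.1 and 111.7 CPM (-0.61, adjusted p = 0.231) and C1qc at 81.04, 134.7, 156.2 and 81.58 CPM (-0.58, 0.281). Cfb was at 33.69, 92.38, 132.2 and 30.51 CPM (-0.72 ± 0.55, adjusted p = 0.358). C4b split the treated wounds, with 4.734 and 4.912 CPM in wounds 1 and 4 and 93.97 and 139.6 CPM in wounds 2 and 3 (1.26 ± 1.28, adjusted p = 0.497). Wounds 2 and 3 were also the higher ones for Cfb, C3 and the C1q chains. This split followed sex, since wounds 1 and 4 expressed Y-linked genes (173 and 207 CPM summed) and wounds 2 and 3 expressed Xist (187 and 137 CPM). In WT vehicle wounds, 1 and 3 expressed Xist and 2 and 4 Y-linked genes, while among Col5a1CKO vehicle wounds 1, 3 and 4 expressed Y-linked genes and none expressed Xist above background. Among the WT vehicle wounds C4b and C3 were higher in those with Xist, but Cfb and the C1q chains did not divide by sex. Sex thus differed in part between cilengitide and vehicle, and its part in these results was not tested.

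**Figure D4:**
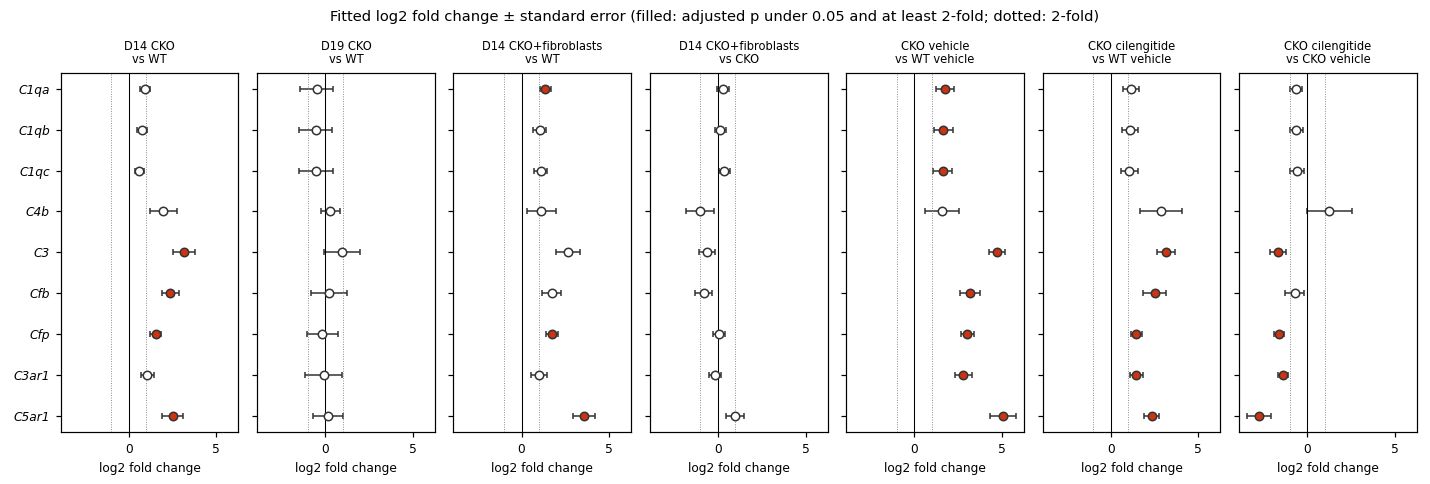
Fitted log2 fold change (points) and standard error (bars) of each gene in the 7 pairwise comparisons, with dotted lines at 2-fold and filled points for called genes. Filled points number 4 of 9 at day 14, 8 of 9 for Col5a1CKO against WT with vehicle, and 4 of 9, all lower, for cilengitide against vehicle.

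These cilengitide differences leaned on particular wounds. The count fell from 4 to 2 without Col5a1CKO vehicle wound 3, cilengitide wound 1 or cilengitide wound 2, in each of which C3 (-1.51, -1.30 and -1.74) and C5ar1 (-2.44, -2.63 and -2.51) lost their calls with adjusted p of 0.0622 to 0.0892. C3 also lost its call without vehicle wound 1 (-1.68) or 4 (-1.48) or cilengitide wound 4 (-1.45), and C5ar1 without cilengitide wound 3 (-2.61). With the neutrophil-rich vehicle wounds 3 and 4 left out, only Cfp was called (-1.2, adjusted p = 0.0103). C3ar1 then differed by -0.95 (adjusted p = 0.00401), just under 2-fold, C3 by -1.2 (0.137) and C5ar1 by -1.27 (0.0904). Macrophage markers summed to 1450 to 2070 CPM with cilengitide (4 of 8 called lower), neutrophil markers to 3150 to 7260 CPM (2 of 6 called lower) and Ptprc to 95.1 to 234 CPM. Their part in the result was not tested. Per unit of Ptprc the cilengitide medians were 1.59 for C3, 0.275 for C5ar1, 0.451 for C3ar1 and 1.21 for C1qa.

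The last pair set cilengitide-treated Col5a1CKO wounds against WT vehicle wounds, and each of these groups is shared with a comparison above. The treated wounds held more of 5 of the 9 transcripts. C3 was higher by 8.79-fold (3.14 ± 0.52, adjusted p = 0.0193), Cfb by 5.68-fold (2.51 ± 0.65, 0.0353), C5ar1 by 5.06-fold (2.34 ± 0.44, 0.0205), C3ar1 by 2.75-fold (1.46 ± 0.38, 0.035) and Cfp by 2.73-fold (1.45 ± 0.31, 0.0238). In this pair 5.15% of 15514 genes were called higher and 3.43% lower, and no complement gene of the 9 was called lower. At an unadjusted p under 0.05 with 2-fold, 8 of 9 were higher and 0 lower, against 9.49% and 4.8% of genes. The wounds of 7 of the 9 genes did not overlap, against 14.5% of genes upwards. C1qa, C1qb and C1qc differed by 1.06 to 1.15 (adjusted p of 0.0975 to 0.136) and C4b by 2.85 ± 1.2 (0.116).

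All 5 calls were lost when certain single wounds were left out. The count was 0 without cilengitide wound 2, 3 or 4 and 1 (C3) without WT vehicle wound 3. Over all genes, 799 were called higher and 532 lower with every wound, but only 3, 1 and 1 higher and 0 lower without cilengitide wound 2, 3 or 4 in turn, and 87 higher and 196 lower without WT vehicle wound 3. Without cilengitide wound 2 the adjusted p-values were 0.0517 for C3, C5ar1 and Cfp, 0.0803 for Cfb and 0.0831 for C3ar1. The corresponding log2 values were 2.98, 2.53, 1.55, 2.37 and 1.37, so the sizes moved little. Without wound 3 they were 2.83, 2.42, 1.28, 2.04 and 1.5, and without wound 4 they were 3.28, 1.95, 1.43, 2.78 and 1.5. Without WT vehicle wound 3, Cfb was at 2.56 (adjusted p = 0.0826), C5ar1 at 2.44 (0.053), C3ar1 at 1.33 (0.0854) and Cfp at 1.57 (0.0542). Cfb also lost its call without WT vehicle wound 1 (2.58) or 4 (2.21), and C3ar1 without cilengitide wound 1 (1.48).

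The rest of the complement system was read from a list of 43 other genes, of which 42 were in the tables. At day 14, 5 of the 24 with enough counts to test passed the call rule, all of them higher in Col5a1CKO (5.57% of all genes were), with a median log2 fold change of 1.14. They were the C1 protease C1ra (1.57 ± 0.47, adjusted p = 0.0444), the C1 inhibitor Serping1 (1.76 ± 0.54, 0.0497), both chains of complement receptor 3, Itgam (2.55 ± 0.43, 0.00515) and Itgb2 (1.92 ± 0.40, 0.0104), and Cd93 (1.39 ± 0.39, 0.0332), a membrane protein of endothelial and myeloid cells. At day 19 none of 25 tested was called, against 0.0198% of all genes higher and 0% lower, with a median of 0.24. In fibroblast-treated against untreated Col5a1CKO wounds none of 33 was called, as was true of 0% of all genes in either direction, with a median of -0.53. Fibroblast-treated wounds were above WT for Itgam (2.37), Itgb2 (2.54), Itgax (1.47) and Cfi (4.74, from means of 0.0154 and 0.576 CPM), which were 4 of 30 tested, against 3.77% of all genes.

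With vehicle, 11 of 27 tested were called higher in Col5a1CKO than in WT wounds and 1 lower, against 17.5% and 13.4% of all genes. Those higher included the proteases C1s (1.74) and Masp1 (2.64), the fluid regulators Serping1 (2.85) and Cfi (3.52), the membrane regulator Cd59a (1.56), and the receptors Gpr77, the second C5a receptor (3.48), Itgam (4.67), Itgb2 (3.91), Itgax (1.99) and Cd93 (2.75). Clu, which encodes the terminal pathway inhibitor clusterin, was the gene called lower, at 176 ± 17.8 CPM in WT and 23.8 ± 7.84 CPM in Col5a1CKO wounds (SD, n = 4; -2.93 ± 0.25 SE, adjusted p = 0.000425). With cilengitide Clu was at 113 ± 25.6 CPM (SD, n = 4), higher than in Col5a1CKO vehicle wounds by 2.26 ± 0.28 (adjusted p = 0.00395), as were 6.48% of all genes. The 5 genes called lower with cilengitide, of 31 tested and against 6.59% of all genes, were receptors or Cd93: Gpr77 (-2.15), Itgam (-2.71), Itgb2 (-2.33), Itgax (-1.29) and Cd93 (-1.56). Against WT vehicle, Serping1 (2.13), Cd59a (1.09), Gpr77 (1.37), Itgam (2.01) and Itgb2 (1.61) were called higher with cilengitide, 5 of 27 tested, against 5.15% of all genes.

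The terminal pathway was nearly silent at the RNA level. Hc, which encodes C5, the source of the ligand of C5ar1, had group medians of 0.102 to 0.714 RPKM, C6 at most 0.355 and C7 at most 0.602 RPKM, and the mannose-binding lectins Mbl1 and Mbl2 were at a median of 0 in every group. Serping1 (27.7 to 213 RPKM) and C1s (21.1 to 67.1 RPKM) were abundant in all groups.

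Genes were ranked by how closely their log2 deviations from group means followed each member over the 23 libraries of the first table. The ranking took in 12067 genes, and r is given there and then in the 12 libraries of the second. C1qa was most like Unc93b1 (0.96 and 0.91), Tmem106a (0.96 and 0.86) and Trem2 (0.96 and 0.84). C1qb was most like Unc93b1 (0.97 and 0.92), Trem2 (0.97 and 0.83) and Emr1 (0.96 and 0.94), and C1qc like Tmem106a (0.96 and 0.89). C3ar1 was most like Ctss (0.97 and 0.94) and Mpeg1 (0.96 and 0.92), and Cfp like Sash3 (0.96 and 0.62) and Lyz2 (0.95 and 0.58). C5ar1 was most like Ccdc88b (0.94 and 0.96), and C4b like Lbp (0.94 and 0.99) and Tppp3 (0.94 and 0.73). The closest genes of the first table fell furthest in the second for C3 and Cfb. Pros1 was at 0.91 and then 0.05 for C3, and Ptpro at 0.94 and then 0.14 for Cfb. A smaller fall was seen for the Cfp genes above and for H2-T24, second for C5ar1 (0.92 and 0.6). Among the members, C3 and Cfb had r of 0.84 and 0.47, C3ar1 and Cfp 0.88 and 0.66, C5ar1 and Cfp 0.65 and 0.76, C1qa and C5ar1 0.54 and 0.07, and C4b and C5ar1 -0.16 and -0.49. Each r describes scatter within groups, and its points share depth and cell content, so these are descriptions.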

How the data were processed

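RNA was sequenced from 35 skin wounds. The authors deposited raw read counts in 2 tables, and no other unit was used. According to the methods, single-end reads were aligned with HISAT2 to NCBI37 (mm9), and SeqMonk counted them over the exons of RefSeq genes. Whether the cilengitide libraries were treated alike is not stated there. HISAT2 and mm9 are also in the submitters' processing notes.

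The first table lists 29082 RefSeq transcripts. For each of its 22830 symbols the transcript with the largest total was kept. Transcripts without a gene name (30 in the first table, at most 0.0694% of counts, and 1 in the second, at most 0.0002%) were left out. CPM used TMM factors within each table, so levels compare within a table only. RPKM was the raw count divided by the transcript length in kilobases and by the total over all transcripts in units of 1000000 counts, with lengths from the first table. Group sums of marker genes used CPM.

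Each pair of groups was tested over all genes with edgeR 4.0.16 in R 4.3.3 (TMM, filterByExpr at 10 counts, quasi-likelihood fit with the robust option, Benjamini-Hochberg adjustment). Calling a gene took an adjusted p under 0.05 together with a 2-fold change or more, and the interaction was called on the adjusted p alone. Intervals are the estimate ± 1.96 SE. DESeq2 1.42.0 was an alternative, and it replaces outlying counts by default in groups of 7. The fitting code was tested on simulated counts. Correlations used log2(CPM + 1) over genes whose mean reached 5 CPM. Those between genes were taken after the mean of each group was subtracted, within library set in the first table. Summaries were made with Python 3.11.15, pandas 2.3.3 and matplotlib 3.10.9.

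The 9 genes, the lists and the tests were chosen with earlier results of these data known. All 9 genes are described, and other complement genes are named where they were called in at least 1 pair of groups, except for an item that is not reported here. The letters of the wounds were not taken as pairs, because the labels do not say that they are. At day 14 the deviations from the group means correlated by more than 0.1 in 5 of 7 same-lettered pairs of WT and Col5a1CKO. At day 19 they did so in 0 of 3. The day 14 values cannot separate pairing from library set, because letters a to d were lower and f and g upper in both genotypes. No 2 replicates differed by as little as sampling noise. The symbols C5ar2, C1s1 and Adgre1 are Gpr77, C1s and Emr1 in the tables. Other settings tried were RLE size factors, library size only, no filter on low counts, counts summed over the transcripts of a gene, all groups in one fit, the library set as a covariate or held fixed, the replicate block, a 3-fold limit, unadjusted p and leaving out each wound.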

Additional observations from a re-analysis of the deposited data

Results flagged for a closer look

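In 4 of 45 combinations of a gene and a group (9 genes in 5 groups of 4 or 7 wounds), a single wound stood far from the others by Dixon's criterion at the 95% level, which chance alone meets in about 5% of cases. C3 was at 147.5 CPM in WT wound a of day 14, and the next highest WT wound was at 51.32 CPM. C4b was at 274.2 CPM in Col5a1CKO wound b of day 14, with 112.3 CPM in the next. C4b was at 76.24 CPM in Col5a1CKO vehicle wound 2, with 11.64 CPM in the next. C3ar1 was at 62.07 CPM in cilengitide wound 2, with 49.25 CPM in the next.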

How the results depend on the processing

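Of 540 values of the members under other settings that left out no single wound, 487 kept their direction and their side of the threshold, 31 passed it newly, 11 no longer passed it and 11 changed sign. With single wounds left out, 680 of 756 kept both. All 72 group levels moved by less than 1 SD with library size alone. The number of members called moved by over 1.5 times in these cases. For Col5a1CKO against WT at day 14 it was 9 within the upper library set, while the 4 to 5 with single wounds left out stayed within that limit. For fibroblast-treated wounds against WT it was 5 by DESeq2, 8 with the library set as a covariate, 9 within the upper set, 7 with unadjusted p, and 1 to 5 with single wounds left out. With vehicle it ranged from 5 to 8 with single wounds left out. For cilengitide against Col5a1CKO vehicle it ranged from 2 to 4, and it was 1 without vehicle wounds 3 and 4, an alternative chosen after seeing the data. For cilengitide against WT vehicle it was 8 by DESeq2, 3 with all groups in one fit, 3 at 3-fold, 8 with unadjusted p, and 0 to 5 with single wounds left out. For the interaction it was 3 with unadjusted p. Except where fewer samples or a looser or stricter limit explain a count by construction, the cause was not tested.

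The signs that changed belonged to differences near 0. At day 19 they were C4b (-0.02), C5ar1 (-0.14) and Cfb (-0.07) with library size only. With single wounds left out, the day 19 ranges were -0.11 to 0.61 for C4b, -0.64 to 0.51 for C3ar1, -0.28 to 0.65 for C5ar1, -0.36 to 1.14 for Cfb and -0.65 to 0.41 for Cfp. For fibroblast-treated against untreated Col5a1CKO wounds, C3ar1 was 0.28 with the library set as a covariate and 0.34 within the upper set, and Cfp was -0.13 and -0.07. There the ranges with single wounds left out were -0.02 to 0.38 for C1qb, -0.40 to 0.06 for C3ar1 and -0.06 to 0.27 for Cfp.

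The wounds shared only a letter, so the replicate block has no basis in the labels. Under the replicate block, 1 member was called in fibroblast-treated against untreated Col5a1CKO wounds, Cfb (-1.36, adjusted p = 0.042), where C1qb was -0.08 and Cfp -0.20. At day 19, C3ar1 was 0.30 and Cfp 0.04. At day 14, C4b (2.24, adjusted p = 0.0163) and C3ar1 (1.2, 0.0273) were called with it, and against WT the fibroblast-treated wounds lost C1qa (0.93, 0.0593). It changed no other call. No paired analysis was possible for the cilengitide experiment because its wounds carry no numbers that match between groups in the labels.

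With library size only, the median log2 fold change of all genes was 0.133 at day 14 and -0.392 at day 19, and the day 14 calls over all genes split into 1018 higher and 246 lower in place of 800 and 390. Over all genes, day 14 calls were 1245 higher and 850 lower by DESeq2 and 1520 and 906 with all groups in one fit. Depth did not limit the members, which passed the count filter in every comparison.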
